A study of Danio rerio with 17 samples.

Results

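The heat shock protein and DnaJ genes of zebrafish were followed across 5 kinds of hand-picked cells of the adult epidermis. The members are all gene IDs whose symbol begins with hsp and a digit or one of the letters a to e, or with dnaja, dnajb or dnajc, 1 entry per ID. This rule found 82 of the 35117 gene IDs in the deposited tables and used no measured value. The 82 genes comprise 14 HSP70 genes, 4 HSP90 genes, 9 small heat shock protein genes, 2 chaperonin genes, 2 genes named for binding a heat shock protein, and 51 J-domain genes, of which 5 are DNAJA, 14 DNAJB and 32 DNAJC.

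The 17 libraries fall into 5 groups. MLCs (4 libraries), which the series text describes as locally restricted mpeg1+ cells, and cLCs (4 libraries) were picked from fish of 1 line with 2 transgenes. The first, hsp70:mCherry-T2a-CreERT2, puts mCherry and the tamoxifen-inducible recombinase CreERT2 under an hsp70 promoter. The second, loxP-DsRedx-loxP-GFP, is driven by the macrophage promoter mpeg1. The labels name no heat treatment for these fish. Keratinocytes (3 libraries) came from Tg(krt4:lyn-GFP), neutrophils (3 libraries) from Tg(lyz:GFP) and T cells (3 libraries) from Tg(lck:DsRedx), so line and cell type cannot be told apart except between MLCs and cLCs, which share a line. Complementary DNA was made by SMART-seq2, and replicates are given by the series text as independent experiments.

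HSP70 proteins bind exposed hydrophobic stretches of unfolded proteins in a cycle driven by ATP. J-domain proteins deliver the substrates and start ATP hydrolysis, nucleotide exchange factors reset the cycle, and HSP90 takes over late folding of selected clients. Separate HSP70 and HSP90 proteins work in the cytosol, the endoplasmic reticulum (ER) and mitochondria. Some of the genes are constitutive, whereas others are nearly silent at rest and are turned on by heat shock factors when proteins misfold.

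Total counts per library were 5837662 to 24596883, and 4484 to 16921 genes had at least 1 count. Fewer than 6000 genes were detected in 4 libraries, which are cLCs 3, cLCs 4, neutrophils 2 and neutrophils 3. Between 16 and 64 of the 82 members were detected per library, and the same 4 libraries had the fewest, with 16 to 26 members. CPM values here are read counts scaled to the same library size with TMM factors and compare libraries. TPM values, the authors' unit scaled by gene length, compare genes. The genes behind the reporters followed the labels. The macrophage gene mpeg1.1 reached 862 to 1628 CPM across MLCs, with 3009.8 to 9898 CPM across cLCs, against 4.28 CPM or less in every other library. The keratin gene krt4 lay at 9511 CPM or more in keratinocytes, lyz at 1116 CPM or more in neutrophils and lck at 584 CPM or more in T cells. MLCs also held keratinocyte markers, whose summed level over 15 genes was 3138 to 7055 CPM, against 34947 to 112449 CPM in keratinocytes. The pan-leukocyte gene ptprc was at 0 in 3 of the 4 MLC libraries. In bulk libraries such as these, fewer cells of a type and less RNA per cell cannot be told apart.

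Of the 82 members, 70 had a count in at least 1 library and 12 had 0 counts in all 17. The 12 silent genes were 8 of the 9 small heat shock protein genes (hspb2, hspb3, hspb6, hspb7, hspb8, hspb9, hspb11 and hspb15), hsp90aa1.1, dnajb5, dnajc5b and dnajc16. Only 7 members were detected in every library, and these were hspa8, hsp90ab1, hspa5, hsp90b1, hspa9, dnaja2 and dnajb1b. Summed over the members, levels were 2514 to 5826 TPM in MLCs, 1934 to 8527 TPM in cLCs, 2864 to 6595 TPM in keratinocytes, 4259 to 7741 TPM in neutrophils and 4937 to 6134 TPM in T cells. All 5 ranges overlapped, and the widest was that of cLCs. A few genes held most of this sum, and hspa8, hsp90ab1 and hspa5 together made up 35.2% to 87.8% of it, with a median of 72.9% over the 17 libraries. The lowest of these shares belonged to cLCs 1, followed by keratinocytes 3 (51.6%) and keratinocytes 2 (58.8%). The plot of summed levels shows what filled the rest in these 3 libraries, namely the inducible hsp70 genes and, in keratinocytes, dnajb1b.

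**Figure D1:**
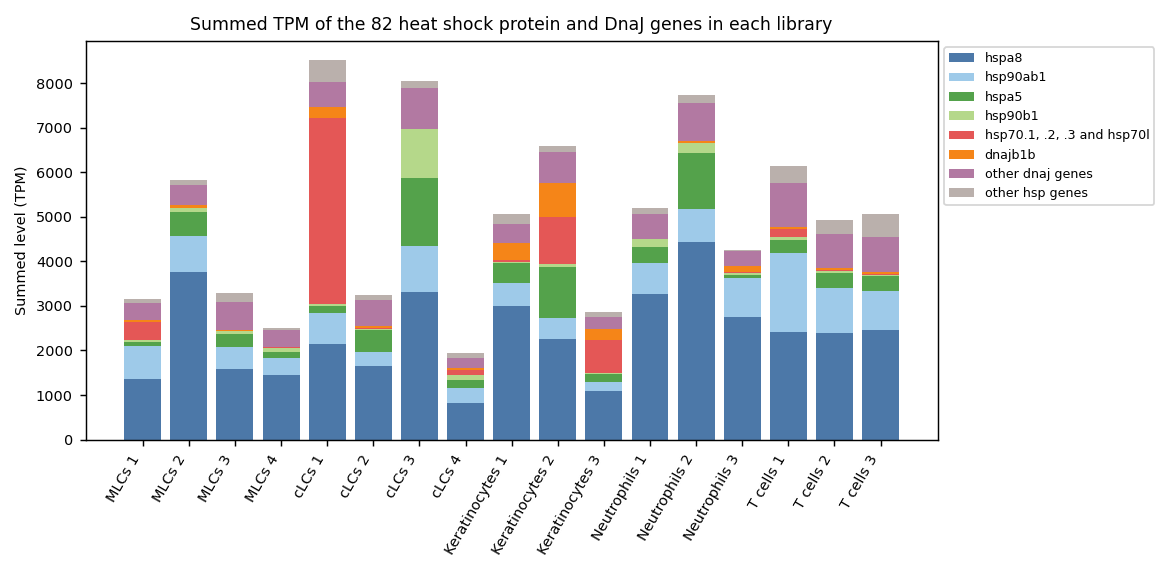
Summed level of the 82 heat shock protein and DnaJ genes in each of the 17 libraries (bar height, TPM), divided by gene or gene class (colours). Constitutive hspa8 is the largest block in all libraries except cLCs 1, where hsp70.1, hsp70.2, hsp70.3 and hsp70l hold 48.9% of the sum.

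The constitutive cytosolic HSP70 gene hspa8, which encodes the cell's housekeeping chaperone Hsc70, was the most abundant member by its mean over groups. Its level was 2428, 8320.3, 2467 and 2738 CPM in MLCs and 3832.5, 5349, 3364.5 and 851 CPM in cLCs. It was 4812, 4399 and 2037 CPM in keratinocytes, 4682, 4699.6 and 3181 CPM in neutrophils and 2755, 2442 and 2539 CPM in T cells. MLCs 2 stood highest and cLCs 4 lowest, and all pairs of groups overlapped except neutrophils and T cells, where every neutrophil library was the higher. How often groups of this size lie fully apart among all genes was not counted. Such separations, here and below, are descriptions and not results about the members. Group means were 3988 ± 2891 CPM in MLCs, 3349 ± 1869 CPM in cLCs, 3749 ± 1497 CPM in keratinocytes, 4188 ± 872 CPM in neutrophils and 2578 ± 160.3 CPM in T cells (SD, n = 4, 4, 3, 3 and 3). Across the 17 libraries hspa8 spanned a 9.78-fold range, and edgeR's F test over the 5 groups gave it an adjusted p of 1.

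The inducible HSP70 genes hsp70.1, hsp70.2 and hsp70.3 behaved in another way: they were near or at 0 in most libraries and high in a few. The 3 genes are consecutive protein-coding genes in the GRCz12tu annotation and are near-identical copies, so the counting may have split or dropped their shared reads and their separate values are uncertain. Their summed level was 521 CPM in MLCs 1 and 0 to 0.457 CPM in the other 3 MLC libraries. It was 5637 CPM in cLCs 1 and 0.157 to 29.6 CPM in the other 3 cLC libraries. Keratinocyte libraries 1, 2 and 3 had 67.5, 1741 and 1236 CPM, neutrophils 0, 0 and 26.1 CPM, and T cells 20.4, 14.2 and 4.18 CPM. Only 4 of the 17 libraries were above 100 CPM, and the highest of the other 13 was keratinocytes 1. Every keratinocyte library was above every neutrophil and T cell library, whereas MLCs and cLCs each held 1 high library beside libraries near 0.

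Taken singly, the 3 genes had the same high libraries. hsp70.3 reached 199 CPM in MLCs 1, 2438 CPM in cLCs 1 and 58.4, 686 and 615 CPM in keratinocytes. hsp70.2 reached 202 CPM in MLCs 1, 2038 CPM in cLCs 1 and 3.59, 688 and 419 CPM in keratinocytes. hsp70.1 reached 120.4 CPM in MLCs 1, 1162 CPM in cLCs 1 and 5.54, 368 and 203 CPM in keratinocytes. In the 3 remaining MLC libraries none of the 3 genes exceeded 0.196 CPM. A 4th inducible gene, hsp70l, named as hsp70-like, differed in where it appeared outside these libraries. Its level was 154.8, 4.57, 0 and 7.04 CPM in MLCs, and cLCs had 1087, 40.4, 0 and 73.8 CPM. Keratinocytes had 0.205, 93.7 and 37.2 CPM, neutrophils 0, 0 and 2.04 CPM and T cells 159, 0.397 and 19.4 CPM. T cells 1 therefore stood beside MLCs 1 for hsp70l, although the 3 clustered genes summed to 20.4 CPM in that library.

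None of these 4 genes passed the test over the 5 groups in the main edgeR fit, although some other settings called them. The edgeR adjusted p in the main fit was 0.249 for hsp70.3, 0.101 for hsp70.2, 0.287 for hsp70.1 and 0.299 for hsp70l. The nearest pair was keratinocytes minus neutrophils for hsp70.2, with a log2 difference of 11.79 ± 4.07 (SE) and an edgeR adjusted p of 0.0884. That difference rests on neutrophil libraries with 0, 0 and 0.291 CPM, and DESeq2 gave it an adjusted p of 0.00043. Features of the libraries moved with the inducible genes, and their part in the result was not tested. The 4 libraries above 100 CPM have the 4 lowest total counts, which are 5837662 in MLCs 1, 6158350 in cLCs 1, 10557601 in keratinocytes 2 and 12073743 in keratinocytes 3. MLCs 1 and cLCs 1 share a replicate number, and the transgenic line of these 2 groups carries an hsp70 promoter. Keratinocyte libraries 2 and 3 reached over 1000 CPM in a line whose label names no hsp70 promoter. Leaving out MLCs 1 gave edgeR adjusted p of 0.00882 for hsp70.2 and 0.042 for hsp70.3 over the 5 groups. With the replicate number as a block, the edgeR adjusted p was 2.7e-06 for hsp70.2, 5.1e-05 for hsp70.3 and 0.0028 for hsp70.1. Without a filter on low counts, edgeR gave 2.4e-06, 0.00015 and 0.0062 for the same genes and 0.028 for hsp70l. Whether these genes were called thus depended on the setting.

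**Figure D2:**
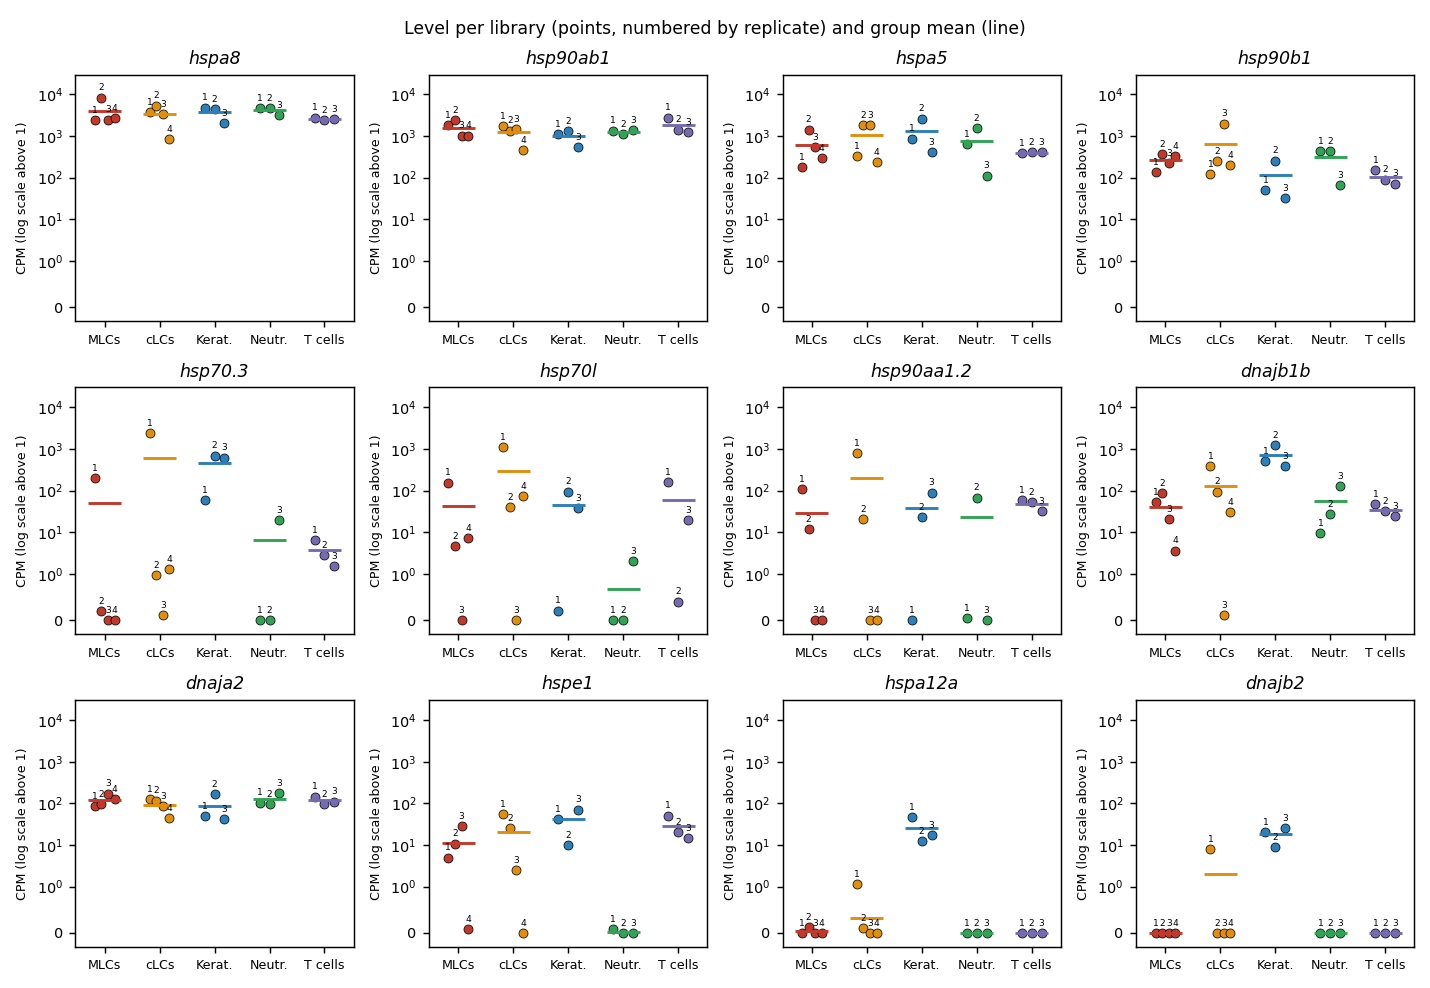
Level of 12 members in each library (points, numbered by replicate) and mean of each group (lines), in CPM on a scale that is linear below 1 and logarithmic above. Constitutive hspa8 and hsp90ab1 stay at 454 CPM or more in all libraries, whereas hsp70.3, hsp70l and hsp90aa1.2 are high in MLCs 1 and cLCs 1 and at or near 0 in several libraries of the same groups.

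The cytosolic HSP90 gene hsp90ab1, the constitutive form that folds kinases and steroid receptors, was the second most abundant member. It lay at 1022 to 2421 CPM in MLCs, 454 to 1704 CPM in cLCs, 534 to 1288 CPM in keratinocytes, 1088 to 1395 CPM in neutrophils and 1228 to 2783 CPM in T cells. Its 6.13-fold range over the 17 libraries was narrower than that of hspa8. The groups overlapped in CPM, and the log2 difference was 0.69 ± 0.73 (SE, edgeR adjusted p = 0.797) for MLCs minus keratinocytes and -0.89 ± 0.78 (SE, edgeR adjusted p = 0.625) for keratinocytes minus T cells. In TPM keratinocytes (206 to 506 TPM) lay below neutrophils (684 to 875 TPM) and T cells (865 to 1771 TPM). limma on log2(TPM + 1) called hsp90ab1 for keratinocytes minus T cells (adjusted p = 0.0416).

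hsp90aa1.2, a paralogue with heat-inducible relatives in other vertebrates, went with the inducible hsp70 genes in its 2 highest libraries. MLCs 1 had 106 CPM, against 11.8, 0 and 0 CPM for the other MLCs, and cLCs 1 had 788 CPM, against 20.8, 0 and 0 CPM for the other cLCs. Keratinocytes had 0, 23.0 and 89.1 CPM, neutrophils 0.0423, 67.9 and 0 CPM and T cells 59.7, 51.9 and 32.0 CPM. T cells were the only group with more than 30 CPM in every library, but MLCs 1, cLCs 1, keratinocytes 3 and neutrophils 2 were above all 3 of them. Its neighbour in the annotation, hsp90aa1.1, which is needed for myosin folding in zebrafish muscle, had 0 counts in all 17 libraries. One ID in the files is listed as both hsp90aa1.2 and hsp90ab1; it was used as hsp90ab1, the name the gene-name table gives it.

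Among the ER members, hspa5 (BiP, the HSP70 of the ER) was at 178, 1419, 532 and 297 CPM in MLCs, 333, 1842, 1817 and 233 CPM in cLCs, with 869, 2614 and 419 CPM in keratinocytes. It was at 626, 1569 and 112 CPM in neutrophils and 390.3, 404 and 409.7 CPM in T cells. The 3 T cell libraries lay close together and below every keratinocyte library, and the other groups overlapped each other widely. For MLCs minus cLCs the log2 difference was -0.80 ± 0.94 (SE, edgeR adjusted p = 0.913). hsp90b1 (GRP94, the HSP90 of the ER) was at 139 to 361 CPM in MLCs. It was at 1981 CPM in cLCs 3 and 123 to 247 CPM in the other 3 cLC libraries. Keratinocytes had 31.8 to 255 CPM, neutrophils 66.0 to 441 CPM and T cells 72.0 to 152 CPM. The high value thus came from 1 library, in which fewer than 6000 genes were detected.

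dnajb11 (ERdj3), a J-domain partner of BiP in the ER lumen, also had its maximum in cLCs 3. MLCs had 38.9, 129.96, 59.2 and 0 CPM, cLCs 30.9, 146, 402 and 0 CPM and keratinocytes 10.6, 82 and 0 CPM. Neutrophils had 59.2, 79.5 and 0 CPM and T cells 38.0, 30.7 and 84.1 CPM. T cells were the only group without a library at 0. dnajc10 (ERdj5), a disulfide reductase of the ER, likewise peaked in cLCs 3, at 50.7 CPM, and had 0 to 26.0 CPM in the other 16 libraries. dnajc3a, which encodes the ER co-chaperone known as P58IPK, had a different pattern. Its level was 14.0, 43.1, 72.6 and 23.8 CPM in MLCs, 6.02, 193.8, 0 and 0 CPM in cLCs, with 92.1, 101 and 82.7 CPM in keratinocytes. Neutrophils had 11.6, 45.1 and 0 CPM and T cells 7.13, 0 and 0 CPM. All keratinocyte libraries were above every MLC, neutrophil and T cell library, and cLCs 2 was the highest of all, but the F test over the groups gave an edgeR adjusted p of 0.79.

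dnajc1, an ER membrane J protein that binds ribosomes, was lower in MLCs and keratinocytes than in most libraries of the other groups. It did not pass edgeR's test over the groups (adjusted p = 0.693), whereas limma on log2(TPM + 1) called it (adjusted p = 0.0217). It had 10.4, 1.63, 34.9 and 19.97 CPM in MLCs, 72.8, 94.8, 40.4 and 10.3 CPM in cLCs, with 6.52, 21.5 and 0 CPM in keratinocytes. It had 37.6, 84.6 and 84.3 CPM in neutrophils and 45.7, 72.0 and 72.9 CPM in T cells. Every MLC library was below every neutrophil and T cell library. hspa13, a microsomal HSP70 relative, had 9.99, 17.6, 56.2 and 26.5 CPM in MLCs, 34.9, 42.6, 0.367 and 0 CPM in cLCs, with 0, 0.523 and 0 CPM in keratinocytes. Neutrophils had 4.91, 4.22 and 0 CPM and T cells 1.58, 14.2 and 35.9 CPM. MLCs and keratinocytes did not overlap, and the log2 difference of MLCs minus keratinocytes was 7.30 ± 3.27 (SE, edgeR adjusted p = 0.251). For the same pair DESeq2 gave an adjusted p of 0.0062, and limma gave 0.048 on log2(TPM + 1) and 0.039 on log2(TPM + 0.1). The values of hspa13 were chosen for mention after they had been seen.

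In mitochondria, hspa9 (mortalin), the HSP70 of the matrix and of the import motor, was at 21.95 to 149 CPM in MLCs, 0.376 to 147 CPM in cLCs, 56.2 to 278 CPM in keratinocytes, 35.4 to 105.5 CPM in neutrophils and 125 to 171 CPM in T cells. The chaperonin genes hspd1 (HSP60) and hspe1 (HSP10), whose products form the folding chamber of the matrix and whose genes are neighbours in the annotation, were low by comparison. hspd1 reached its highest level in T cells 3, at 102 CPM, and was at 0 in MLCs 4, cLCs 4, keratinocytes 3 and neutrophils 2 and 3. hspe1 was at 4.99, 10.8, 28.3 and 0.0765 CPM in MLCs, 55.7, 25, 2.46 and 0 CPM in cLCs, with 42.5, 9.94 and 70.9 CPM in keratinocytes. It had 0.0846, 0 and 0 CPM in neutrophils and 50.9, 20.5 and 14.6 CPM in T cells. Neutrophils held 2 hspe1 counts in all, and no other group was so low in every library. The log2 difference of keratinocytes minus neutrophils was 10.12 ± 3.30 (SE), the smallest adjusted p of any member in the 7 pairs fitted (edgeR adjusted p = 0.0751). DESeq2 gave 1.0e-05 for the same pair, and edgeR without cLCs 4 gave 0.0348. Without the 4 libraries of fewer than 6000 genes, edgeR did not call it.

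hspa4a and hspa4b encode HSP110-type exchange factors for HSP70. hspa4a was at 35.3 to 80.5 CPM in MLCs, 0 to 191 CPM in cLCs, 46.1 to 128 CPM in keratinocytes, 0 to 32.9 CPM in neutrophils and 4.14 to 98.1 CPM in T cells. All MLC and keratinocyte libraries were above all neutrophil libraries. hspa4b showed no such order, at 18.8 to 96.0 CPM in MLCs, 0 to 127 CPM in cLCs, 7.79 to 78.5 CPM in keratinocytes, 3.25 to 116 CPM in neutrophils and 24.99 to 58.7 CPM in T cells. Neither gene passed edgeR's F test (adjusted p = 1 for both).

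hspa14 and dnajc2 encode the HSP70 and the J-domain subunit of the ribosome-associated complex, which handles chains as they leave the ribosome. hspa14 was at 0 to 22.5 CPM in MLCs, 0 to 25.2 CPM in keratinocytes and 0 to 18.4 CPM in neutrophils, against 78.8, 100.7 and 146 CPM in T cells. cLCs had 14.4, 1.73, 80.5 and 72.2 CPM and so reached into the T cell range. dnajc2 was at 0.2, 23.7, 7.69 and 16.8 CPM in MLCs and at most 2.17 CPM in cLCs. It was at 15.7, 13.1 and 20.6 CPM in keratinocytes, at most 0.0846 CPM in neutrophils and 22.3, 21.9 and 36.3 CPM in T cells. Every keratinocyte and T cell library was above every cLC and neutrophil library for dnajc2, with an edgeR adjusted p of 0.15 over the groups. The pair hspa14 and dnajc2 was chosen after its values had been seen.

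The first of the 2 members called by the F test was hspa12a, an atypical HSP70 relative. Its level was 0, 0.131, 0 and 0 CPM in MLCs, 1.16, 0.108, 0 and 0 CPM in cLCs, with 47.1, 12.3 and 17.2 CPM in keratinocytes. It had no count in any neutrophil or T cell library. All 3 keratinocyte libraries were above all other libraries, and edgeR's F test gave an adjusted p of 0.0175. hspa12a had 918, 94 and 172 counts in keratinocytes and at most 6 in any other library. It thus passed the count filter through the group where it was high, and its F test is not independent of that filter. The keratinocyte mean of hspa12a was 540 times a floor of 3 counts over the group in neutrophils and 514 times that floor in T cells. The floor covers counting error only, because PCR copies of 1 molecule are counted as separate reads in this protocol. These values therefore do not bound the true differences. The adjusted p stayed between 0.0145 and 0.0483 when each of the 17 libraries was left out in turn, and the gene was not tested under the stricter count filter. Single pairs did not pass in edgeR: MLCs minus keratinocytes gave a log2 difference of -9.20 ± 3.28 (SE, adjusted p = 0.172) and keratinocytes minus T cells 11.64 ± 3.84 (SE, adjusted p = 0.107). Other tools called both pairs. DESeq2 gave adjusted p of 0.0078 and 0.0015, and limma on log2(TPM + 1) gave 2.5e-05 and 3.8e-05. The related hspa12b was low throughout, at most 6.26 CPM in neutrophils 1, and at 0 in all 3 keratinocyte libraries.

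The other called member was dnajb2, a J-domain gene known in mammals for an abundant neuronal form that binds ubiquitin. It was at 0 in all 4 MLC libraries, at 7.96, 0, 0 and 0 CPM in cLCs, and at 20.5, 9.03 and 25.8 CPM in keratinocytes. All neutrophil and T cell libraries were at 0. Keratinocytes did not overlap with any other group, although cLCs 1 came near to keratinocytes 2. In counts, dnajb2 had 400, 69 and 258 in keratinocytes, 41 in cLCs 1 and 0 elsewhere. It thus passed the count filter through keratinocytes, and its F test is not independent of that filter. The edgeR adjusted p over the 5 groups was 0.0472. The keratinocyte mean of dnajb2 was 311 times the floor of 3 counts in MLCs. It was 390 times that floor in neutrophils and 372 times that in T cells. The floor covers counting error only, so these values do not bound the true differences. The call rested on most of the libraries. It was lost in 14 of the 17 fits that left out 1 library, where the adjusted p ran up to 0.0776, and held without cLCs 1, cLCs 3 or cLCs 4. DESeq2 gave 0.0993 and the fit without the 4 libraries of fewer than 6000 genes 0.0528. For the pair MLCs minus keratinocytes, which edgeR did not call, DESeq2 gave dnajb2 an adjusted p of 0.0474. limma on log2(TPM + 1) gave 0.00033 for that pair.

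Keratinocyte markers, like the 2 called genes, were highest in keratinocytes, and their part in both calls was not tested. The summed level of the 15 keratinocyte markers was 3138 to 7055 CPM in MLCs, 143 to 3999 CPM in cLCs, 34947 to 112449 CPM in keratinocytes, 0.0485 to 325 CPM in neutrophils and 15.5 to 97.9 CPM in T cells. Of the 15, the number without a count in any library of the group was 2 in MLCs, 3 in cLCs, 1 in keratinocytes, 9 in neutrophils and 7 in T cells. Single libraries held fewer of them. Counts were present for 13, 8, 5 and 6 of the 15 in MLCs 1 to 4 and for 11, 8, 2 and 4 in cLCs 1 to 4. Keratinocytes 1 to 3 had 13, 14 and 13. In MLCs krt4 was at 27.2 to 506 CPM, against 9511 CPM or more in keratinocytes. Over the 4 MLC libraries hspa12a had 2 counts in all and dnajb2 none. In cLCs 1 the markers summed to 1058 CPM, 11 of the 15 had counts, and krt4 was at 24.6 CPM. In cLCs 2 they summed to 3999 CPM, krt4 was at 7.69 CPM and dnajb2 was at 0. Whether keratinocyte RNA contributed to the levels of either gene was not tested.

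dnajb1b, the zebrafish counterpart of the classic heat-inducible HSP40, was the most abundant J-domain member by mean TPM. It was at 51.9, 87.1, 20.4 and 3.60 CPM in MLCs, 380.3, 94.1, 0.105 and 30.3 CPM in cLCs, with 508, 1252 and 377.5 CPM in keratinocytes. It was at 9.39, 27.5 and 130.3 CPM in neutrophils and 46.8, 31.6 and 23.96 CPM in T cells. Every keratinocyte library was above every MLC, neutrophil and T cell library, and only cLCs 1 reached into the keratinocyte range. Group means were 40.8 ± 36.8 CPM in MLCs, 126 ± 174 CPM in cLCs, 713 ± 472 CPM in keratinocytes, 55.7 ± 65.2 CPM in neutrophils and 34.1 ± 11.6 CPM in T cells (SD, n = 4, 4, 3, 3 and 3).

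In edgeR the difference in dnajb1b did not pass the threshold. The F test gave an adjusted p of 0.105. The log2 differences were -4.13 ± 1.57 for MLCs minus keratinocytes (SE, edgeR adjusted p = 0.191), -2.50 ± 1.48 for cLCs minus keratinocytes (SE, edgeR adjusted p = 0.328), 3.68 ± 1.73 for keratinocytes minus neutrophils (SE, edgeR adjusted p = 0.16) and 4.38 ± 1.78 for keratinocytes minus T cells (SE, edgeR adjusted p = 0.158). Other fits called it: DESeq2 gave 0.0328 over the 5 groups, and edgeR gave 0.00914 without the 4 libraries of fewer than 6000 genes and 0.0419 without cLCs 3, the library with 0.105 CPM. MLCs 1, cLCs 1 and keratinocytes 2 and 3, the 4 libraries high in hsp70.1 to hsp70.3, had 51.9, 380.3, 1252 and 377.5 CPM of dnajb1b, so MLCs 1 was not among the high ones. Keratinocytes 1, with 67.5 CPM of the hsp70 cluster, still had 508 CPM. The paralogue dnajb1a was at 63.5 CPM in cLCs 1, 36.4 CPM in neutrophils 2 and at most 33.9 CPM in the other 15 libraries, with no order among the groups. Per length it was above dnajb1b in neutrophils 1 and 2, at 16.03 and 54.1 TPM, against 7.97 and 31.4 TPM for dnajb1b, and below it in the other 15 libraries.

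Among the other J-domain genes, dnaja2, a general cytosolic HSP40, was the steadiest member. It was at 86.5 to 171 CPM in MLCs, 44.4 to 127 CPM in cLCs, 41.9 to 170.4 CPM in keratinocytes, 97.5 to 179 CPM in neutrophils and 96.4 to 146 CPM in T cells, a 4.27-fold range over 17 libraries. dnaja2l and dnaja1, its relatives, were at 0 in 4 and 6 libraries. dnaja1 reached 61.0 CPM in cLCs 2 and 54.4 CPM in neutrophils 1. dnajb6a, which holds back protein aggregation, was at 2.60 to 17.2 CPM in MLCs, 0 to 63.2 CPM in cLCs, 14.5 to 61.3 CPM in keratinocytes, 0 to 44.8 CPM in neutrophils and 29.3 to 72.5 CPM in T cells. MLCs were below every T cell library for dnajb6a, yet the F test gave an edgeR adjusted p of 0.996. Its paralogue dnajb6b was at most 6.59 CPM in MLCs and 2.06 CPM in cLCs, at 24.8, 119 and 2.40 CPM in keratinocytes, at 0 in neutrophils and at most 14.1 CPM in T cells (edgeR adjusted p = 0.111).

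dnajc5ab encodes cysteine string protein, a J protein anchored on secretory vesicles. It was at 35.7, 65.4, 20.6 and 25.6 CPM in MLCs, 61.5, 117, 11.4 and 29.4 CPM in cLCs, with 2.56, 0 and 4.80 CPM in keratinocytes. It was at 39.0, 89.3 and 0 CPM in neutrophils and 9.78, 0 and 4.22 CPM in T cells. All MLC and cLC libraries were above all keratinocyte and T cell libraries, and neutrophils reached across the gap. edgeR's F test gave an adjusted p of 0.522. Summed by class, the J-domain genes made up 8.58% to 22.1% of the members' TPM. The DNAJC sum was 319 to 414 CPM in MLCs, 148 to 789 CPM in cLCs, 209 to 524 CPM in keratinocytes, 132 to 307 CPM in neutrophils and 351 to 473 CPM in T cells. MLCs and T cells overlapped in CPM, although in TPM they did not, with 218 to 269 TPM in MLCs and 348 to 432 TPM in T cells. The DNAJB sum was 50.1 to 307 CPM in MLCs, 30.3 to 530 CPM in cLCs, 491 to 1631 CPM in keratinocytes, 97.5 to 194 CPM in neutrophils and 195 to 299.8 CPM in T cells. Keratinocytes lay above MLCs, neutrophils and T cells. Without dnajb1b the other 13 DNAJB genes summed to 46.5 to 220.1 CPM in MLCs and 113 to 378 CPM in keratinocytes, which overlapped.

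**Figure D3:**
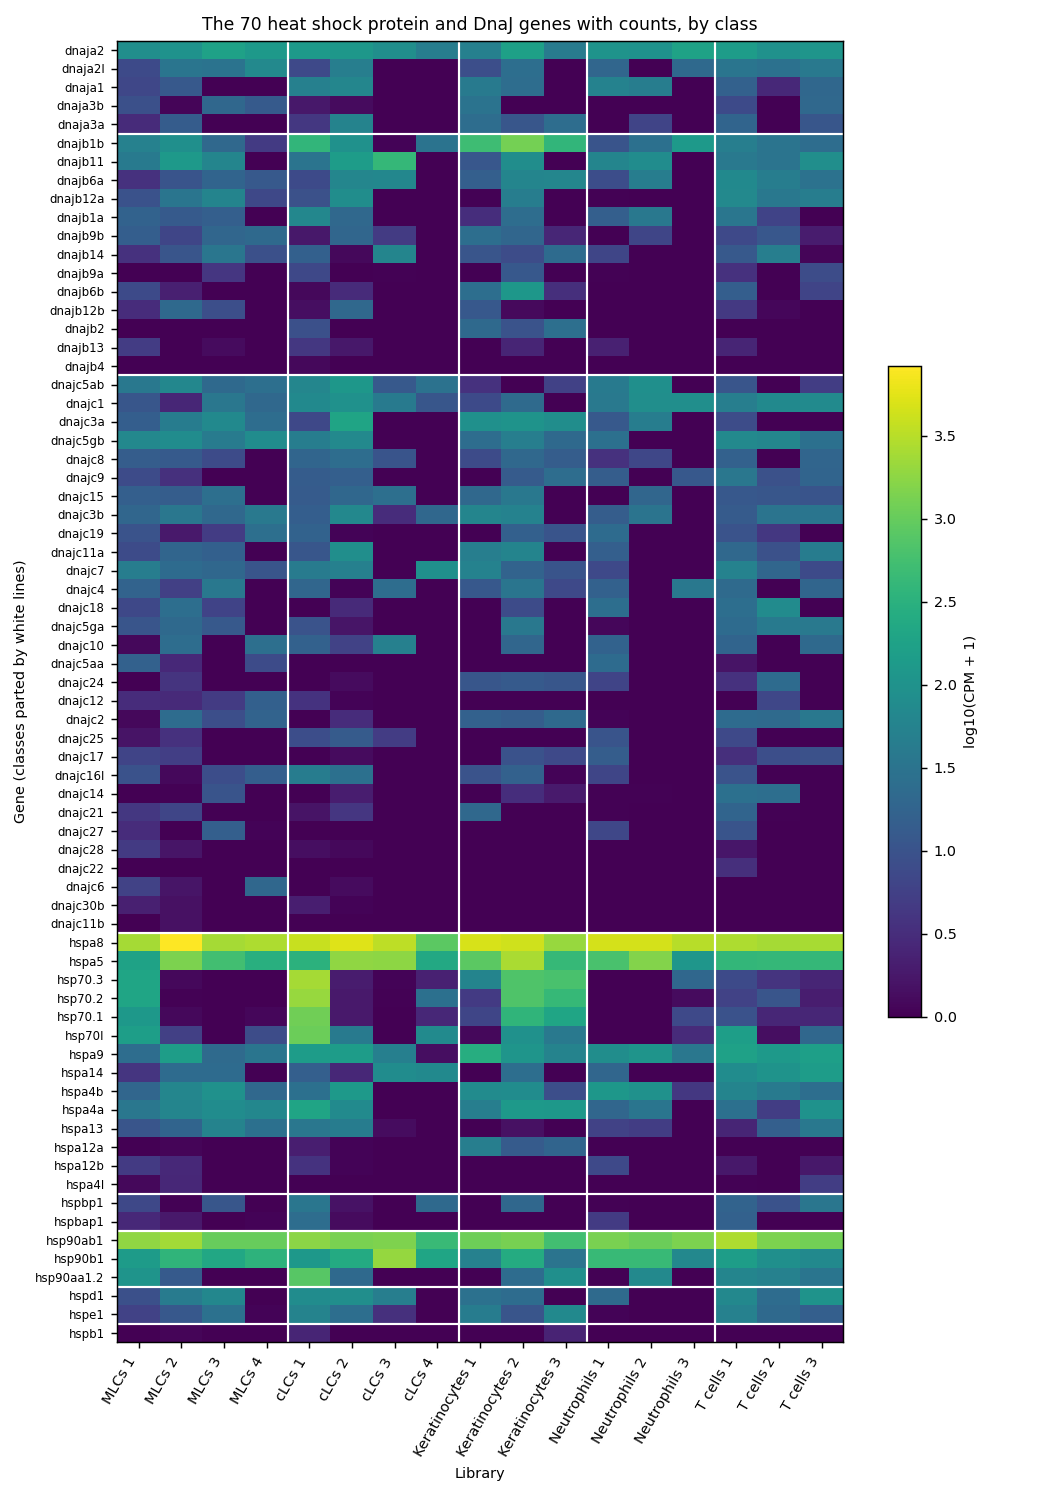
Level of the 70 members with counts (rows, ordered by class and by mean TPM within a class) in the 17 libraries (columns), as log10(CPM + 1) from dark (0) to light. The dark columns of cLCs 3, cLCs 4, neutrophils 2 and neutrophils 3 are the libraries with 16 to 26 members detected, and the light hsp70 rows are bright in MLCs 1, cLCs 1 and keratinocytes 2 and 3.

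The small heat shock proteins, which hold unfolding proteins without using ATP, were nearly absent. hspb1, the zebrafish HSP27, had 2 counts in MLCs 2, 8 counts in cLCs 1 and 15 counts in keratinocytes 3, which is 0.131, 1.55 and 1.499 CPM, and 0 in the other 14 libraries. The 8 others had no count in any group. Over the 4 MLC libraries the floor of 3 counts lies at 0.0593 CPM. This floor covers counting error only, so 0 counts do not bound the true level there. The 2 cofactor genes hspbp1, an exchange factor of HSP70, and hspbap1, named as a partner of HSPB1, were low. hspbp1 was at 17.01, 8.69 and 33.5 CPM in T cells and 1 count in all neutrophils together, and at 33.8 CPM in cLCs 1. hspbap1 was at 24.1 CPM in cLCs 1, 15.6 CPM in T cells 1 and at most 3.81 CPM elsewhere, with no count in keratinocytes.

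The test for any difference among the 5 groups called 2 of the 62 members that passed the count filter, or 3.23%, against 16% of all 15247 genes tested (edgeR quasi-likelihood F test with Benjamini-Hochberg adjustment over all genes). Of the members, 8 had an unadjusted p under 0.05, or 12.9%, against 31% of all genes. A gene passes the filter if it is high in 1 group, so the 62 are not a sample of the 82 without regard to level. DESeq2 called 5 members, or 8.06%, against 18.3% of all genes, and limma on log2(TPM + 1) called 9, or 14.5%, against 31.4%. The members' share was below the share of all genes under all 3 tools, which were run on the same libraries and are not independent.

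Of the pairs of groups, 7 were fitted, and cLCs against neutrophils, cLCs against T cells and neutrophils against T cells were not. In the 7 pairs edgeR called 0 of the 62 members at an adjusted p under 0.05, and DESeq2 and limma called up to 12. Between MLCs and cLCs, edgeR called 0.171% of all genes. An unadjusted p under 0.05 was reached by 3 members (4.84%), against 12.8% of all genes. DESeq2 called 2 members (3.23%), against 7.09%. limma called none, against 8.4%.

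Between MLCs and keratinocytes, edgeR called 1.91% of all genes. Here 6 members (9.68%), against 18.1% of all genes, had an unadjusted p under 0.05. DESeq2 called 5 members (8.06%), against 13.6%, and limma 5 (8.06%), against 12.6%. Between MLCs and neutrophils, edgeR called 1.9% of all genes, and 8 members (12.9%), against 24.5%, had an unadjusted p under 0.05. DESeq2 called 10 members (16.1%), against 17.8%, whereas limma called 0, against 8.91%. Between MLCs and T cells, edgeR called 1.21% of all genes. There 0 members had an unadjusted p under 0.05, against 15.1% of all genes, and 0 were called by DESeq2, against 9.41%, or by limma, against 13.8%.

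Between cLCs and keratinocytes, edgeR called 3.37% of all genes, and 4 members (6.45%), against 21.8%, had an unadjusted p under 0.05. DESeq2 called 3 members (4.84%), against 17.9%, and limma 5 (8.06%), against 14.1%. Between keratinocytes and neutrophils, edgeR called 4.85% of all genes, and 12 members (19.4%), against 29.5%, had an unadjusted p under 0.05. DESeq2 called 12 members (19.4%), against 25.5%, and limma 6 (9.68%), against 14.2%. Between keratinocytes and T cells, edgeR called 3.33% of all genes, and 4 members (6.45%), against 23.7%, had an unadjusted p under 0.05. DESeq2 called 5 members (8.06%), against 18.7%, and limma 8 (12.9%), against 20.7%. These comparisons share libraries and are not independent. The biological coefficient of variation of the fit was 2.03.

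**Figure D4:**
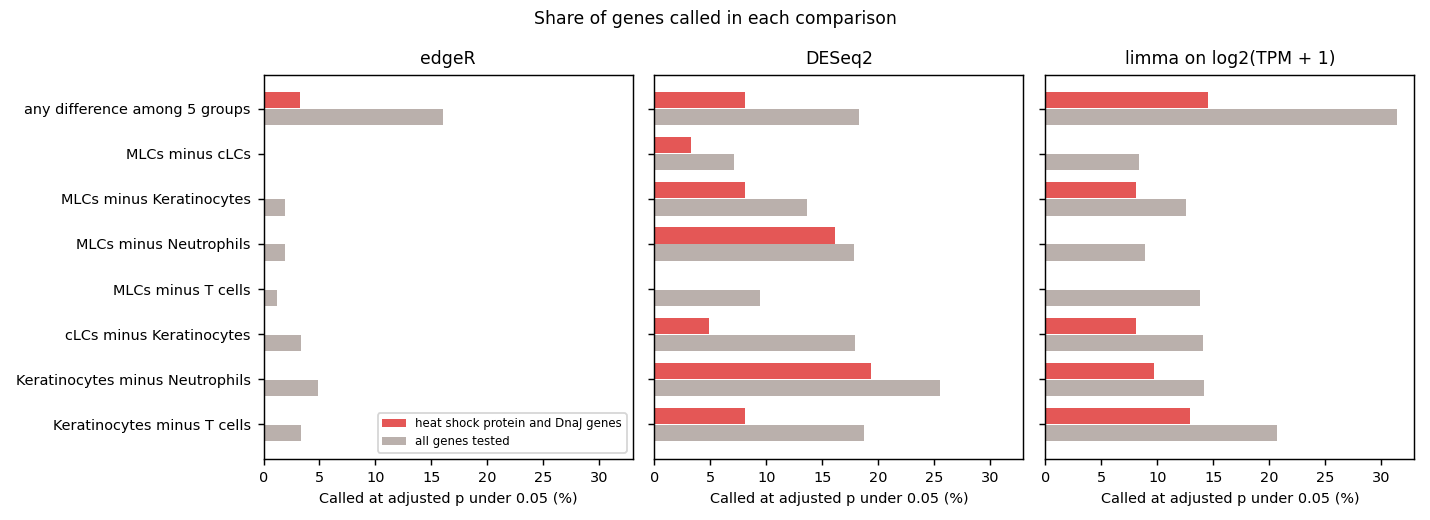
Share of genes called at an adjusted p under 0.05 (horizontal axis, %) in the test over 5 groups and in the 7 pairs (rows), for the 62 tested heat shock protein and DnaJ genes (red) and all tested genes (grey), by edgeR, DESeq2 and limma (panels). The red bar is shorter than the grey bar in every row of every panel, and in edgeR it is 3.23% for the test over 5 groups and 0 for the 7 pairs. In the edgeR pairs the grey bar is 0.171% to 4.85%, a share at which few or no calls among 62 genes would be expected. The panels use the same libraries and are not independent.

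Members' medians lay close to those of all genes in some pairs and apart in others. The median log2 difference over the 62 members was -0.49 for MLCs minus cLCs, against 0.13 over all genes, and -0.15 for MLCs minus keratinocytes, against 0.30. It was 1.06 for MLCs minus neutrophils, against 1.08, and 0.00 for MLCs minus T cells, against -0.09. It was -0.02 for cLCs minus keratinocytes, against 0.26, 1.36 for keratinocytes minus neutrophils, against 0.17, and -0.03 for keratinocytes minus T cells, against -0.48. With size factors by median ratio in place of TMM, the all-gene median was 0.08 for MLCs minus keratinocytes, 0 for cLCs minus keratinocytes and -0.23 for keratinocytes minus T cells. The members' medians for the same pairs were then -0.31, -0.36 and 0.23.

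Genes that work with the members were followed in the same fit. Heat shock factors drive the heat-inducible genes. hsf1 was at 0 to 14.4 CPM in MLCs, 0 to 3.69 CPM in cLCs, 0 to 14.5 CPM in keratinocytes, 0 to 8.50 CPM in neutrophils and 0 to 29.2 CPM in T cells. hsf2 was at 68.7, 12.7, 29 and 3.14 CPM in MLCs, with 28.5, 4.44, 14.3 and 7.76 CPM in cLCs. It was at 67.8, 0.392 and 21.5 CPM in keratinocytes, at most 0.211 CPM in neutrophils and 75.1, 48.3 and 71.7 CPM in T cells, so MLCs 1 and keratinocytes 1 lay within the T cell range. hsf4 and hsf5 had no counts. hsf1 and hsf2 were chosen after their values had been seen, and edgeR called neither. DESeq2 called hsf2 over the 5 groups and in MLCs and keratinocytes against neutrophils, and limma on log2(TPM + 1) called it over the 5 groups. The heat-inducible list, whose 17 genes are all members, had 12 genes tested. edgeR called 0 of them in the F test, against 16% of all genes, and 0 in any of the 7 pairs, against 0.171% to 4.85%. In the F test 2 of the 12 had an unadjusted p under 0.05, against 31% of all genes. DESeq2 called 2 of the 12, against 18.3%, and limma 1, against 31.4%. In the pairs 0 to 3 had an unadjusted p under 0.05, against 12.8% to 29.5% of all genes. There DESeq2 called 0 to 2, against 7.09% to 25.5%, and limma 0 to 1, against 8.4% to 20.7%. The summed level of the 17 genes was 94.6 to 923 CPM in MLCs, 49.9 to 8363 CPM in cLCs and 812 to 3398 CPM in keratinocytes. It was 162 to 304 CPM in neutrophils and 193 to 539 CPM in T cells, and the highest value was that of cLCs 1.

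Of 36 HSP70 and HSP90 cofactors, 31 were tested. In the F test edgeR called none, against 16% of all genes, and 2 had an unadjusted p under 0.05, against 31%. In the pairs edgeR called only tomm34, a cofactor that binds both chaperones, in 2 of the 7. That is 1 of the 31 tested in each. The share of all genes called was 1.9% for MLCs minus neutrophils and 4.85% for keratinocytes minus neutrophils. DESeq2 called 0 to 5 of the list in each comparison, against 7.09% to 25.5% of all genes, and limma 1 to 5, against 8.4% to 31.4%. tomm34 was at 7.99, 48.9, 45.9 and 66.2 CPM in MLCs and 84.9, 71.6 and 53.3 CPM in keratinocytes. Neutrophils had 0.0423, 0 and 0 CPM of tomm34, cLCs 52.2, 68.6, 71.0 and 0 CPM and T cells 39.4, 37.3 and 31.1 CPM. The log2 difference of tomm34 was 10.86 ± 2.73 for MLCs minus neutrophils (SE, edgeR adjusted p = 0.0401). For keratinocytes minus neutrophils it was 11.59 ± 2.82 (SE, edgeR adjusted p = 0.0198). The all-gene medians for these pairs were 1.08 and 0.17. tomm34 was at 0 in neutrophils 2 and 3 and cLCs 4, which had 5071, 4556 and 4484 genes detected. A 0 in such a library does not show absence. Neutrophils 1, with 11404 genes detected, held 1 count of tomm34, and cLCs 3, with 5662 genes, had 71.0 CPM. The part of low detection in both calls was not tested. A list of genes of the cytosolic chaperonin CCT, which folds actin and tubulin, and of the separate complex prefoldin had 14 genes tested. edgeR called 0 of them in the F test or in any of the 7 pairs. None had an unadjusted p under 0.05 in edgeR, against 12.8% to 31% of all genes over the comparisons. DESeq2 and limma called 0 to 1 each, against 7.09% to 25.5% and 8.4% to 31.4%. The summed level of this list was 832 to 1257 CPM in MLCs and 520 to 1604 CPM in cLCs, against 211 to 545 CPM in keratinocytes. It was 586 to 1058.5 CPM in neutrophils and 829 to 1564 CPM in T cells. The median of these CCT and prefoldin genes for MLCs minus keratinocytes was 1.32 on the log2 scale, against 0.30 for all genes. Of 26 ER stress genes tested, edgeR called 0 in the F test, against 16% of all genes. It also called 0 in any of the 7 pairs, against 0.171% to 4.85% of all genes. Between 0 and 5 of the 26 had an unadjusted p under 0.05 in each comparison. The 5 were for MLCs minus keratinocytes, where 18.1% of all genes had such a p. For that pair DESeq2 called 3 of the 26, against 13.6% of all genes, and limma 5, against 12.6%. Of 9 genes tested in a list of mitochondrial protease genes and trap1, the gene of the mitochondrial HSP90, edgeR likewise called 0. In each comparison 0 to 1 had an unadjusted p under 0.05, against 12.8% to 31% of all genes. DESeq2 and limma called 0 to 1 each, against 7.09% to 25.5% and 8.4% to 31.4%.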

How the data were processed

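Reads were aligned with STAR to danRer10 and counted with featureCounts, per the submitters' processing notes, with versions, annotation and strandedness not given in the sources used here. The deposited count table holds the authors' whole-number counts per gene and library, and a second deposited table holds TPM values computed by the authors. Of 35572 lines, 455 repeated an ID under another symbol and were merged, which left 35117 IDs. Members and gene lists were chosen with earlier results of these data known. The 82 members were matched by symbol, and 80 were found in the RefSeq table of GRCz12tu, used for gene names and neighbours only. No sequences were used here. Members were named where they were called, were among the 3 highest by mean TPM in their class or belonged to the heat-inducible list, and the others, such as hspa9, hspa12b, hspa13, hspa14, dnajb6b, dnajc2 and dnajc10, were chosen after their values were seen.

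Counts of genes kept by filterByExpr were fitted with edgeR 4.0.16 (R 4.3.3) by quasi-likelihood over all 17 libraries with TMM scaling, a common coefficient of variation of 2.03 and 12 residual degrees of freedom, and called at a Benjamini-Hochberg adjusted p under 0.05 over 15247 genes. The SE given with an edgeR log2 difference is that difference, without sign, divided by the square root of its F statistic. Where a group had no counts, the size of a log2 difference depends on the method. For hspa12a in keratinocytes minus T cells, limma gave 3.37 on log2(TPM + 1) and 6.53 on log2(TPM + 0.1). The fit was tested on simulated data. Alternatives were DESeq2 1.42.0, limma 3.58.1 on log2(TPM + 1) and log2(TPM + 0.1) for genes with at least 1 TPM in 3 libraries, other filters and scaling, a block for the replicate number, and left-out libraries. Replicate numbers were not taken to pair libraries.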

Additional observations from a re-analysis of the deposited data

Results flagged for a closer look

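Within the groups of 4 libraries, values of named members that stood apart from the other 3 by Dixon's criterion at 95% were listed. Of 55 combinations of member and group checked, chance would flag about 1 in 20 if values were normally distributed, which levels with many zeros are not. Where the other 3 libraries are at 0, any value stands apart whatever its size, as for dnajb2 and hspb1 in cLCs 1 and for hspa12a and hspb1 in MLCs 2. The explanation of these values was not tested.

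In MLCs 1, 5 inducible genes stood apart. hsp70.3 was at 199 CPM, hsp70.2 at 202 CPM, hsp70.1 at 120.4 CPM, hsp70l at 154.8 CPM and hsp90aa1.2 at 106 CPM.

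In cLCs 1, 9 values stood apart, those of the same 5 genes among them. hsp70.3 was at 2438 CPM, hsp70.2 at 2038 CPM, hsp70.1 at 1162 CPM, hsp70l at 1087 CPM and hsp90aa1.2 at 788 CPM, and the next highest cLC library had 1.32, 26.6, 1.69, 73.8 and 20.8 CPM of these genes. hspbap1 was at 24.1 CPM, dnajb2 at 7.96 CPM, hspb1 at 1.55 CPM and hspa12a at 1.16 CPM.

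In MLCs 2, hspa8 was at 8320.3 CPM, against 2738 CPM in the next library. hspa12a and hspb1 were each at 0.131 CPM there, which is 2 counts, against 0 in the other MLCs. In cLCs 2, dnajc3a was at 193.8 CPM and dnaja2l at 46.3 CPM, and in cLCs 3, hsp90b1 was at 1981 CPM.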

How the results depend on the processing

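The number of members called over the 5 groups was 2 in edgeR, 5 with DESeq2, 7 without a filter on low counts, 0 with at least 10 CPM in 3 libraries, 9 and 7 with limma on log2(TPM + 1) and log2(TPM + 0.1), 5 with the replicate block, and 1 to 3 when each library was left out in turn. Under the stricter filter neither hspa12a nor dnajb2 was tested. Against 0 in edgeR, DESeq2 called 2 members for MLCs minus cLCs, 5 for MLCs minus keratinocytes, 10 for MLCs minus neutrophils, 3 for cLCs minus keratinocytes, 12 for keratinocytes minus neutrophils and 5 for keratinocytes minus T cells. With the 2 limma pseudocounts of 1 and 0.1, limma called 5 and 4 for MLCs minus keratinocytes, 0 and 1 for MLCs minus neutrophils, 5 and 5 for cLCs minus keratinocytes, 6 and 6 for keratinocytes minus neutrophils, and 8 and 5 for keratinocytes minus T cells. Without a filter, edgeR called 1 for MLCs minus neutrophils, 2 for keratinocytes minus neutrophils and 2 for keratinocytes minus T cells. Without the 4 libraries of fewer than 6000 genes it called 1 for MLCs minus keratinocytes, 1 for cLCs minus keratinocytes and 2 for keratinocytes minus T cells. Leaving out single libraries gave 0 to 1 for keratinocytes minus neutrophils, where the 1 was hsp70.2 without MLCs 1 and hspe1 without cLCs 4, and 0 for the other 6 pairs. The share of all genes called is given above for the main edgeR fit, DESeq2 and limma on log2(TPM + 1). For the other settings, the replicate block among them, no such share stands beside the counts of members. Those counts therefore do not show whether members were called more or less often than other genes. The cause of these shifts was not tested.

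With the replicate number as a block, edgeR called 2 members for MLCs minus keratinocytes, 2 for keratinocytes minus neutrophils, 3 for keratinocytes minus T cells and 0 for the other 4 pairs. Same-numbered libraries of different groups correlated at -0.0436 to 0.176 in their deviations from the group means (median 0.0102 over 31 pairs). Libraries of different number correlated at -0.101 to 0.11 (84 pairs). Between MLCs and cLCs, which share a line, same-numbered libraries correlated at 0.176, 0.105, 0.0323 and 0.0434 for replicates 1 to 4. The values for MLC and cLC libraries of different number ran from -0.101 to 0.0493. The highest value of all was that of MLCs 1 and cLCs 1. Whether the numbers pair these 2 groups was not tested, and the main fit holds no block for them.

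Of the values recomputed for single members, 1039 kept their side of the threshold, 57 passed it newly and 16 lost it, all 16 for dnajb2, and none changed direction.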
